A study of Homo sapiens with 6 samples.

Results

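The clustered protocadherin genes lie side by side in 3 clusters, alpha, beta and gamma, on the long arm of human chromosome 5, and their transcripts were followed here in HCC827 lung adenocarcinoma cells whose EGFR kinase was inhibited. Members were picked by gene symbol, with earlier results of these data known. They were the rows named PCDHA, PCDHB, PCDHGA, PCDHGB or PCDHGC with a number or a C number. They came to 53 of the 28395 genes listed: 15 alpha, 16 beta and 22 gamma. HCC827 is an established tumour line in which a deletion within EGFR leaves the receptor constantly active, and erlotinib is a drug that occupies the kinase domain of the receptor and shuts it off. All cultures were grown to the same range of confluence and then received the vehicle DMSO (3 libraries) or 1 μM erlotinib (3 libraries) for 24 h. Poly(A) RNA was sequenced, and 20760204 to 24641819 reads per library were assigned to genes. The study used this line alone for sequencing, and nothing in the labels says that the 3 libraries of a group came from separate cultures. The paper states that its experiments, the animal work aside, were independently repeated 3 or more times. It does not tie this to single libraries. The p-values therefore measure only the spread between these libraries, which may be technical.

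Clustered protocadherins are cell-surface proteins of the cadherin superfamily that bind the same isoform on a neighbouring cell, and they are best known from neurons, where each cell displays its own combination of isoforms and uses it to tell its own branches from those of other cells. In the alpha and gamma clusters each gene has its own promoter and its own large variable exon, which encodes the extracellular part and the membrane span and is spliced to short constant exons that all genes of the cluster share, whereas each beta gene is a lone coding exon without the shared tail. CTCF and cohesin bring chosen promoters to distant enhancers, unused promoters carry DNA methylation, and most of the promoters hold a conserved element with the core CGCT. The genes fall into alternate isoforms, which are chosen promoter by promoter, and C-type isoforms (PCDHAC1, PCDHAC2, PCDHGC3, PCDHGC4 and PCDHGC5), which sit at the downstream ends of the alpha and gamma clusters.

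The stretch just upstream of 5 starts is shown because these genes carry the main contrasts in the data. They are the alternate gene with the highest mean signal in the alpha cluster (PCDHA11), the beta gene with the highest mean signal (PCDHB2), the gamma alternate gene with the highest mean signal (PCDHGA10), and the pair of C-type genes that fell (PCDHGC3 and PCDHAC2). The sequences are from RefSeq on GRCh38.p14, plus strand, 5′ to 3′, 90 bases each and ending at the base before the annotated start: chr5:140868867-140868956 for PCDHA11, chr5:141094525-141094614 for PCDHB2, chr5:141412897-141412986 for PCDHGA10, chr5:141475876-141475965 for PCDHGC3 and chr5:140966386-140966475 for PCDHAC2. Capitals mark CGCT or its reverse complement AGCG.
PCDHA11: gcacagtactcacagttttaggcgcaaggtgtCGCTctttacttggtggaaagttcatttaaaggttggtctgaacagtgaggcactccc
PCDHB2: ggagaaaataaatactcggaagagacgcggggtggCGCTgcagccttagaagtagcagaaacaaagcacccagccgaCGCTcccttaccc
PCDHGA10: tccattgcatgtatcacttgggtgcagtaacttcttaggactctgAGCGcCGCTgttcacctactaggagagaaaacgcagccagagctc
PCDHGC3: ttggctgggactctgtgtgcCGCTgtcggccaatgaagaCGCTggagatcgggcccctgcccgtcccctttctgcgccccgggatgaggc
PCDHAC2: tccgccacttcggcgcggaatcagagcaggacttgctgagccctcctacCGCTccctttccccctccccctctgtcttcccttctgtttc

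Promoter windows, from 250 bases before to 50 after each annotated start, were given for 47 of the 53 members (52 windows), and motifs were searched in them on both strands. CGCT was found in 98.1% of the members' windows and in 70.0% of the 35116 windows of all genes. GGCGCT, which contains CGCT, was found in 48.1% of the members' windows against 21.7% of all, and it was unevenly spread over the clusters, being present in 13 of 14 beta windows, 11 of 25 gamma windows and 1 of 13 alpha windows. A form with a T and a G ahead of the core, TGNCGCT, was added after the windows had been read, and it was found in 67.3% of the members' windows against 10.9% of all, in 11 of 13 alpha, 13 of 14 beta and 11 of 25 gamma windows. In PCDHA11 this form begins 61 bases before the start and in PCDHB2 58 bases before it, and in PCDHAC2 its only copy lies 23 bases after the start. PCDHGC3, which fell, held 2 copies, the first beginning 149 bases before the start. PCDHGA10, which rose, held none. Members' windows held a median of 7.5 CpG dinucleotides against 14 for all windows, with 15 in PCDHAC2, 18 in PCDHGC3, 23 and 24 in the windows of PCDHGC4 and 27 in PCDHAC1 among the C-type genes. Some gamma B windows lay in the same range of 15 to 27, with 16 and 25 in PCDHGB6, 19 in PCDHGB5 and 17 in PCDHGB4. The other windows of PCDHGB5 and PCDHGB4 lay below it, with 14 and 13. A match is a description of the letters only and was not tested against the response.

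The way the genes overlap bears on what a value of a single member means. In the GENCODE annotation of GRCh38 all 15 alpha genes end on the same 3 constant exons (chr5:140978949-140979007, chr5:140982475-140982563 and chr5:141009627-141012347), and all 22 gamma genes end on another set (chr5:141494807-141494865, chr5:141505393-141505481 and chr5:141510947-141512975). A read on a constant exon therefore belongs to every gene of the cluster. If such reads had been credited to each gene, no member could have fewer reads than that shared amount. The lowest alpha member had 0 reads in DMSO 1 and DMSO 3 and 2 reads in DMSO 2, and the lowest gamma member had 0 reads in 4 libraries and 2 reads in erlotinib 4 and 6. The row named PCDHACT had 0 reads in all 6 libraries. These are upper limits on what the constant exons can have added to every member. The limit is weaker for the alpha genes in the erlotinib libraries, where the lowest member had 18, 16 and 6 reads. Variable exons also resemble one another. Of all stretches of 100 bases in PCDHB8, 25.6% were found unchanged in other members, most in PCDHB13. The share was 24.7% in PCDHB10, most in PCDHB9, and 21.4% in PCDHA7, most in PCDHA9. Reads that fall within such stretches cannot be told apart by sequence, so these genes are the least certain of the set. The strand setting of the counting is not given in the sources used here.

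The signal of nearly all clustered protocadherins was higher with erlotinib. Signal, the deposited value, is the number of reads divided by 1 size factor per library, so it is relative and not an amount per cell. Of the 53 members, 45 had a mean signal of at least 10 over the 6 libraries and were tested together with all other such genes, 14215 in all (limma on log2(signal + 1), Benjamini-Hochberg adjustment, threshold 0.05). Of these 45 members, 41 rose, 2 fell (PCDHAC2 and PCDHGC3) and 2 did not pass (PCDHGA9 and PCDHGB6). Over all genes tested, 35.3% rose and 35.4% fell, and over the 7505 tested genes within the members' range of mean signal (10.7 to 662) 41.0% rose and 23.4% fell. A rise that passed and reached at least 1 log2 unit was seen in 39 members, against 17.0% of all genes tested and 25.8% of those in the members' range. A fall of that kind was seen in 0 members, against 10.8% and 9.37%. The median log2 fold change was 1.95 over the members tested, 0.02 over all genes tested and 0.28 over genes in the members' range. In bulk RNA, more cells with these transcripts and more transcript per cell cannot be told apart.

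A filter on the overall mean favours rises in genes of low level, since 14 of the 45 members reached it only through their erlotinib libraries (PCDHA1, PCDHA5 to PCDHA9, PCDHB4, PCDHB7, PCDHB15, PCDHGA2, PCDHGA4, PCDHGA9, PCDHGB3 and PCDHGB4). Among the 31 members with a DMSO mean of at least 10, 28 rose, 2 fell and the median log2 fold change was 1.71. Of all 13588 genes tested with such a DMSO mean, 33.4% rose and 37.0% fell, with a median of -0.03. Over all 53 members, filtered or not, the mean signal was higher with erlotinib in 51 and lower in 2. Every erlotinib library lay above every DMSO library in 45 members and below in 2, and the groups overlapped in 6, which were PCDHB1, PCDHGA9, PCDHGB6, PCDHGA12, PCDHGC4 and PCDHGC5. Of all 19595 genes with at least 1 read, 30.1% lay wholly above and 27.6% wholly below.

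**Figure D1:**
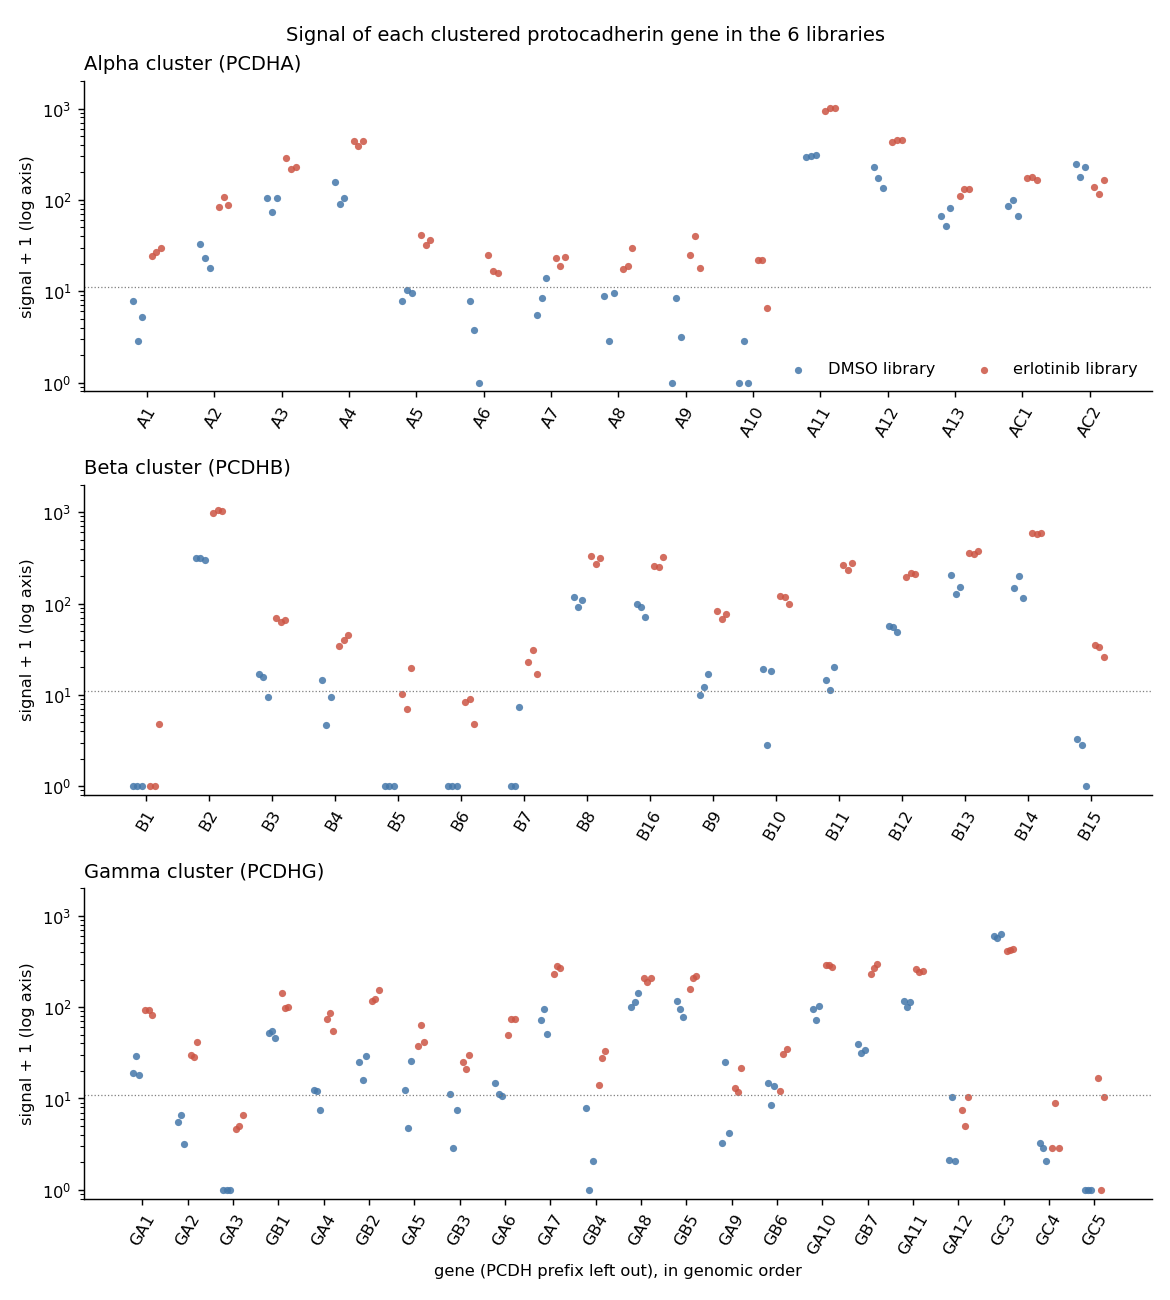
Signal plus 1 (log axis) of each of the 53 genes in the 3 DMSO (blue) and 3 erlotinib (red) libraries, 1 panel per cluster, genes in genomic order; the dotted line is the signal of 10 used as filter. The red points lie wholly above the blue ones in 45 genes and wholly below in PCDHAC2 and PCDHGC3.

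In the alpha cluster 13 of 14 tested genes rose and PCDHAC2 fell. PCDHA11, whose variable exon is at chr5:140868957-140871494, had the highest level per length, with a signal of 297, 299 and 306 in DMSO and of 945, 1008 and 1012 with erlotinib. Its libraries were tightly grouped and far apart between conditions, a rise of 1.71 log2 units (SE 0.10, adjusted p = 2.57e-12, limma). PCDHA12 was at 230.3, 175 and 134 in DMSO and at 430.0, 450.4 and 447 with erlotinib, a log2 fold change of 1.33 (SE 0.16, adjusted p = 2.43e-07, limma). PCDHA4 was at 154, 89.2 and 103 and then at 442, 388 and 438, a log2 fold change of 1.90 (SE 0.17, adjusted p = 4.55e-09, limma). PCDHA3 was at 103, 72.4 and 105 and then at 283, 217 and 227, a log2 fold change of 1.38 (SE 0.19, adjusted p = 1.24e-06, limma). In PCDHA12, PCDHA4 and PCDHA3 the DMSO libraries spread more, relative to their level, than in PCDHA11, and in none of these genes did the conditions overlap.

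The C-type genes at the end of the alpha cluster went in opposite directions. PCDHAC2 (variable exon at chr5:140966476-140969331) was at 244, 179 and 226 in DMSO and at 138, 114 and 164 with erlotinib, so that its highest erlotinib library lay just under its lowest DMSO library. The fall was 0.64 log2 units (log2 fold change -0.64, SE 0.18, adjusted p = 0.00283, limma). PCDHAC1, its upstream neighbour, was at 85.1, 99.4 and 65.3 and then at 172, 177 and 164, and it rose by 1.05 log2 units (SE 0.19, adjusted p = 6.53e-05, limma). PCDHA13, the last alternate gene before them, was at 65.8, 50.1 and 81.3 and then at 109.8, 129.7 and 129, with the smallest rise of the cluster, 0.91 log2 units (SE 0.22, adjusted p = 0.00104, limma).

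The other alpha alternate genes started from low levels. PCDHA2 was at 31.8, 22.3 and 17.1 in DMSO and at 82.1, 107 and 88.0 with erlotinib, a log2 fold change of 1.95 (SE 0.30, adjusted p = 6.31e-06, limma). PCDHA5 was at 6.81, 9.29 and 8.56 and then at 40.6, 30.7 and 35.6 (log2 fold change 1.99, SE 0.44). PCDHA1 was at 6.81, 1.86 and 4.28 and then at 23.1, 25.7 and 29.0 (2.45, SE 0.58). In these 3 genes every erlotinib library lay well above every DMSO library. PCDHA9, 1 of the pair with long identical stretches, was at 0, 7.43 and 2.14 and then at 24.0, 39.6 and 16.8 (log2 fold change 3.14, SE 0.76, and 2.35 without DMSO 1 or 3.89 without DMSO 2). PCDHA6 was at 6.81, 2.79 and 0 and then at 24.0, 15.8 and 15 (2.61, SE 0.78, and 3.28 without DMSO 1 or 1.80 without DMSO 3). When any erlotinib library was left out, PCDHA6 fell below the filter and was not tested. With 0.1 or 10 added to the signal in place of 1, the log2 fold change was 4.41 or 1.47 for PCDHA9 and 3.83 or 1.12 for PCDHA6. PCDHA8 was at 7.94, 1.86 and 8.56 and then at 16.6, 17.8 and 29.0 (1.78, SE 0.61). PCDHA7 had the weakest call of all, at 4.54, 7.43 and 12.8 and then at 22.1, 17.8 and 22.5 (1.33, SE 0.53, adjusted p = 0.031, limma), and it lost the call when DMSO 1 or any erlotinib library was left out (adjusted p = 0.0526 to 0.0944). PCDHA8 lost its call, at an adjusted p of 0.0133 in limma, only without erlotinib 6 (adjusted p = 0.083). PCDHA10 was below the filter, with 0, 2 and 0 reads in DMSO and 23, 21 and 6 with erlotinib.

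In the beta cluster all 13 tested genes rose, with log2 fold changes of 1.19 to 4.10. PCDHB2, at chr5:141094615-141098703, had the highest mean signal of the 53 genes when length is left aside, at 315, 310.2 and 299 in DMSO and at 979, 1049 and 1019 with erlotinib. Like PCDHA11 it varied little within a condition, and its rise of 1.72 log2 units (SE 0.10, adjusted p = 2.2e-12, limma) was nearly that of PCDHA11. PCDHB14 was at 145, 199.7 and 113 and then at 585, 580.1 and 588 (log2 fold change 1.97, SE 0.16, adjusted p = 6.92e-10, limma). PCDHB13 was at 206, 125 and 152 and then at 357, 351 and 377 (1.19, SE 0.16, adjusted p = 1.39e-06, limma). PCDHB8, which shares sequence with PCDHB13, was at 118, 91.0 and 107 and then at 329, 266 and 315 (1.52, SE 0.16, adjusted p = 4.25e-08, limma). PCDHB16 was at 98.7, 90.1 and 69.6 and then at 254, 249.5 and 321 (1.67, SE 0.18, adjusted p = 5.11e-08, limma). PCDHB14 and PCDHB13 differed more among DMSO libraries than among erlotinib libraries, while PCDHB8 and PCDHB16 spread in both conditions.

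Several beta genes rose steeply from low levels. Of the 4 described next, PCDHB15 and PCDHB7 had a DMSO mean under 10 and reached the filter only through their erlotinib libraries. PCDHB11 (chr5:141199627-141203779) was at 13.6, 10.2 and 19.3 in DMSO and at 262, 233 and 273 with erlotinib, with both groups far apart. The mean signal was 17.8 times higher, and the log2 fold change was 4.10 (SE 0.26, adjusted p = 1.69e-11, limma). PCDHB15 was close to silent, at 2.27, 1.86 and 0, and then at 34.1, 32.7 and 25.3, a log2 fold change of 3.90 (SE 0.70, adjusted p = 4.51e-05, limma). PCDHB10 was at 18.2, 1.86 and 17.1 and then at 119, 116 and 98.3, a log2 fold change of 3.49 (SE 0.52, adjusted p = 4.34e-06, limma). DMSO 2 was low for PCDHB10, and without that library its log2 fold change was 2.58. PCDHB7 was at 0, 0 and 6.42 and then at 22.1, 29.7 and 15.9, a log2 fold change of 3.55 (SE 0.85, adjusted p = 0.00088, limma) that became 4.52 without DMSO 3. For genes this close to 0 the size of the change depends on the pseudocount, and with 0.1 or 10 in place of 1 it was 5.30 or 1.84 for PCDHB15 and 5.77 or 1.44 for PCDHB7.

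The remaining beta genes lay between these extremes. PCDHB12, directly downstream of PCDHB11, was at 55.6, 53.9 and 48.2 and then at 195, 213 and 212 (log2 fold change 1.96, SE 0.19, adjusted p = 1.1e-08, limma). PCDHB9, directly upstream of PCDHB10, was at 9.08, 11.1 and 16.1 and then at 81.2, 66.3 and 74.9 (2.55, SE 0.35). PCDHB3 was at 15.9, 14.9 and 8.56 and then at 68.3, 61.4 and 65.5 (2.27, SE 0.36). None of these overlapped between conditions. PCDHB4 was at 13.6, 3.71 and 8.56 and then at 33.2, 38.6 and 44 (log2 fold change 2.18, SE 0.48). PCDHB1, PCDHB5 and PCDHB6 had no read in any DMSO library. With erlotinib PCDHB5 had 10, 6 and 20 reads, PCDHB6 had 8, 8 and 4, and PCDHB1 had 0, 0 and 4. Set against a floor of 3 reads in a library, the mean erlotinib signal was 3.32 times the floor for PCDHB5 and 1.87 times for PCDHB6. No such ratio is given for PCDHB1. These ratios leave out the counting error of the erlotinib reads. Reads came mostly in even numbers, with 82.5% of the 97 members' values of 1 to 20 reads even and 58.1% to 61.1% over all genes by library, so that a count of 4 may stand for fewer fragments.

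**Figure D2:**
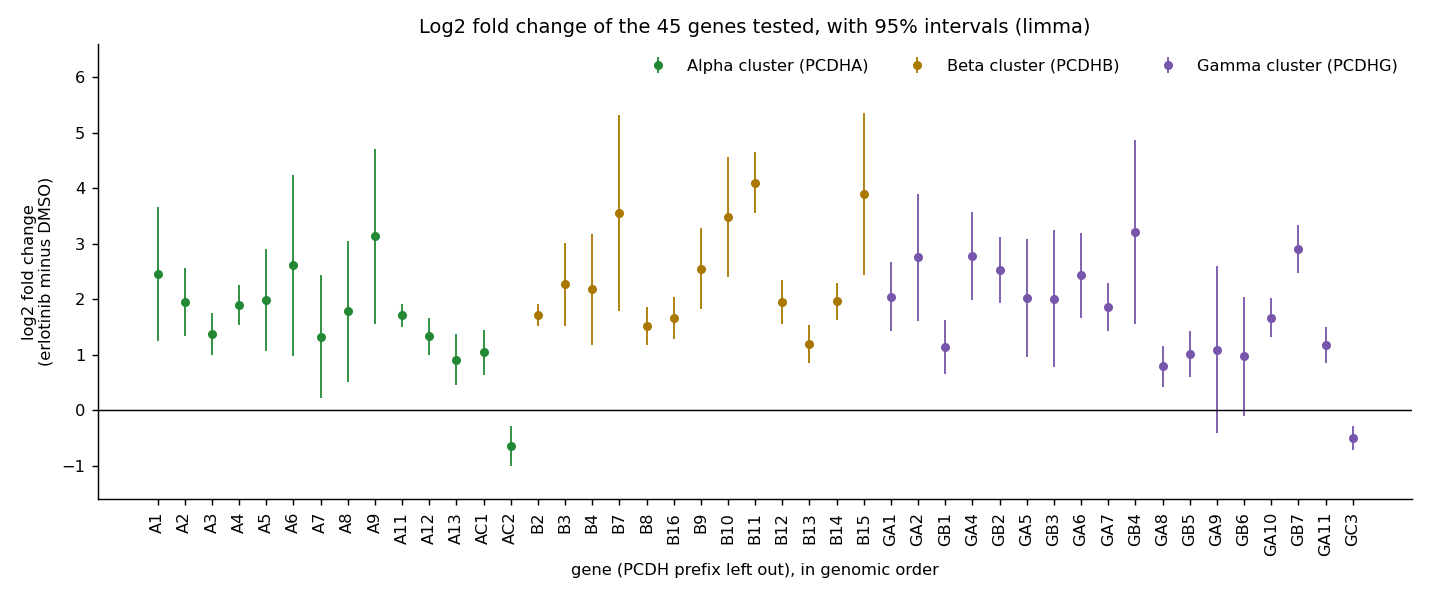
Log2 fold change (erlotinib minus DMSO, log2(signal + 1) scale) of the 45 genes tested, in genomic order, with 95% intervals from limma; colours mark the clusters. Only PCDHAC2 and PCDHGC3 lie wholly below 0, the intervals of PCDHGA9 and PCDHGB6 cross 0, and PCDHB11 stands highest at 4.10.

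In the gamma cluster 15 of 18 tested genes rose, PCDHGC3 fell, and PCDHGA9 and PCDHGB6 did not pass. PCDHGC3 (variable exon at chr5:141475966-141478546), the C-type gene that led all 53 in DMSO, was at 600.1, 573 and 624 there and at 414, 418 and 436 with erlotinib. Both groups were tight and well separated, and the fall was 0.50 log2 units (log2 fold change -0.50, SE 0.10, adjusted p = 0.000177, limma). PCDHGA10 was at 95.3, 70.6 and 101 and then at 285, 287 and 273 (log2 fold change 1.67, SE 0.17, adjusted p = 2.56e-08, limma). PCDHGA11 was at 117, 99.4 and 113 and then at 263, 239.6 and 245 (1.18, SE 0.16, adjusted p = 1.15e-06, limma). PCDHGA7 was at 71.5, 94.7 and 50.3 and then at 229.8, 279 and 265 (1.86, SE 0.21, adjusted p = 8.01e-08, limma). All 3 alternate genes rose clear of their DMSO libraries. PCDHGA8 was at 98.7, 111 and 140.2 and then at 206, 187 and 209.7, which was the smallest rise among the called genes (log2 fold change 0.79, SE 0.17, adjusted p = 0.000395, limma).

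The gamma B genes are a subfamily interleaved with the A genes. PCDHGB7 was at 38.6, 30.6 and 33.2 and then at 229, 264 and 293 (log2 fold change 2.90, SE 0.21, adjusted p = 7.24e-11, limma). PCDHGB4 was at 6.81, 0 and 1.07 and then at 12.9, 26.7 and 31.8 (3.20, SE 0.79, adjusted p = 0.00124, limma). PCDHGB2 was at 23.8, 14.9 and 27.8 and then at 114, 123 and 153 (2.53, SE 0.28, adjusted p = 9.51e-08, limma). PCDHGB7 was tight, the DMSO libraries of PCDHGB2 spread more, and PCDHGB4 spread widely in both conditions. PCDHGB4 reached the filter only through its erlotinib libraries, and its log2 fold change was 4.02 without DMSO 1, 2.54 without DMSO 2 and 1.41 with a pseudocount of 10. Over all alternatives run, its log2 fold change went from 1.41 to 4.58. PCDHGB3 was at 10.2, 1.86 and 6.42 and then at 24.0, 19.8 and 29.0 (2.01, SE 0.59). PCDHGB1 was at 51.0, 53.9 and 45 and then at 143, 98.0 and 98.3 (1.14, SE 0.23). PCDHGB5 was at 116, 93.8 and 77.1 and then at 155, 207 and 218 (1.01, SE 0.20). PCDHGB6 overlapped between conditions, at 13.6, 7.43 and 12.8 and then at 11.1, 29.7 and 33.7 (log2 fold change 0.97, SE 0.51, adjusted p = 0.0969, limma), and erlotinib 4 set it apart, since without that library the adjusted p was 0.0222.

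Gamma A genes of low level rose as well. PCDHGA4 was at 11.3, 11.1 and 6.42 and then at 73.8, 86.1 and 54.3 (log2 fold change 2.78, SE 0.38, adjusted p = 1.53e-06, limma). PCDHGA2 was at 4.54, 5.57 and 2.14 and then at 28.6, 27.7 and 40.3 (2.75, SE 0.55). PCDHGA6 was at 13.6, 10.2 and 9.63 and then at 48.0, 73.3 and 73.9 (2.43, SE 0.37). No library of one condition reached into the other in these genes. PCDHGA1, the first gene of the cluster, was at 18.2, 27.9 and 17.1 and then at 91.4, 92.1 and 80.5 (2.04, SE 0.30). PCDHGA5 was at 11.3, 3.71 and 24.6 and then at 36.9, 63.4 and 40.3 (2.03, SE 0.51, and 1.39 without DMSO 2). PCDHGA9 was at 2.27, 24.1 and 3.21 and then at 12.0, 10.9 and 20.6 (log2 fold change 1.09, SE 0.72, adjusted p = 0.184, limma), with DMSO 2 above all erlotinib libraries. Below the filter were PCDHGA3 with no read in DMSO and 4, 4 and 6 with erlotinib, PCDHGA12 with 1, 10 and 1 and then 7, 4 and 10, PCDHGC4 with 2, 2 and 1 and then 2, 8 and 2, and PCDHGC5 with none in DMSO and 17, 0 and 10 with erlotinib. The mean erlotinib signal of PCDHGA3 was 1.3 times the floor of 3 reads.

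The summed signal of each cluster compares them without picking genes, and it was not tested, since members of a cluster are not replicates. The beta sum was 1012, 914 and 865 in DMSO and 3336, 3301 and 3455 with erlotinib, a ratio of means of 3.62. The alpha sum was 1244, 1019 and 1074 and then 2774, 2759 and 2823, a ratio of 2.50. The gamma sum was 1307, 1245 and 1297 and then 2406, 2548 and 2622, a ratio of 1.97. In each cluster every erlotinib library lay far above every DMSO library. The sums do not rank the clusters by level, since beta exons are longer. Summed per kilobase of variable or sole exon, gamma was at 495 ± 12.8, alpha at 425 ± 45.5 and beta at 233 ± 18.2 in DMSO, and alpha was at 1084 ± 12.6, gamma at 973 ± 42.5 and beta at 849 ± 21.1 with erlotinib (SD, n = 3 each), so that beta was lowest in both conditions and had the largest ratio, 3.64 against 2.55 for alpha and 1.96 for gamma. All 53 genes together were at 3326 ± 208 and at 8675 ± 201 (SD, n = 3 each).

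The lower ratio of the gamma cluster came with PCDHGC3. Without it the gamma sum was 684 ± 19.6 in DMSO and 2103 ± 100.1 with erlotinib, a ratio of 3.07. The split into alternate and C-type genes was made after the values had been seen and follows the common naming. The 13 alpha alternate genes were at 813 ± 91.5 and 2476 ± 17.2, a ratio of 3.05, and the 19 gamma alternate genes at 682 ± 19.1 and 2090.3 ± 104, a ratio of 3.06. On this reading alpha and gamma alternate genes had nearly the same ratio, and the beta genes stood somewhat above both. Within the gamma alternates the 12 A genes had a ratio of 2.86 and the 7 B genes of 3.48. Of the 5 C-type genes 1 rose, 2 fell and 2 were below the filter.

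**Figure D3:**
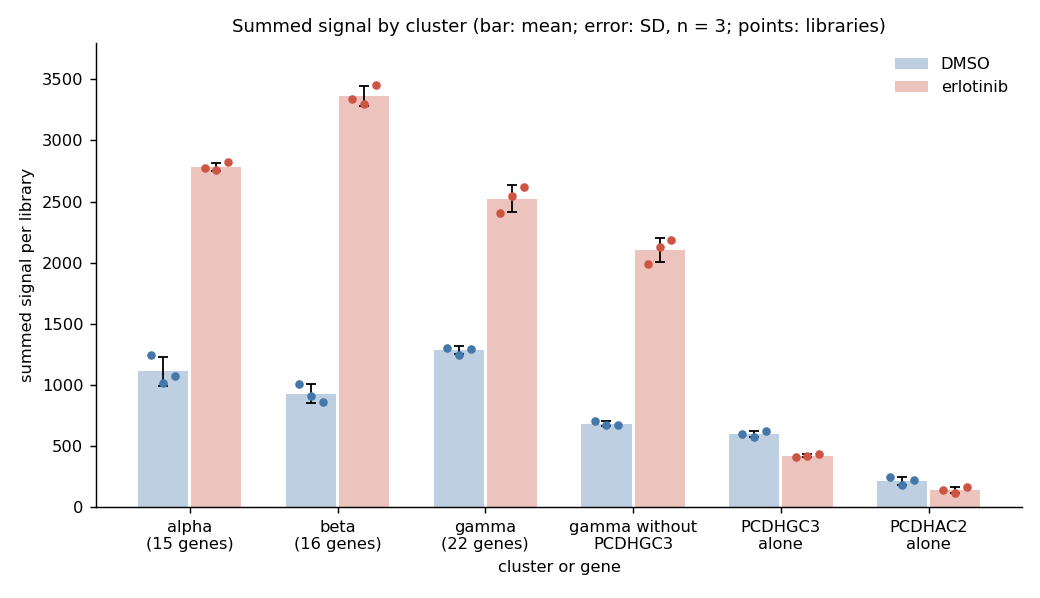
Summed signal of each cluster, of the gamma cluster without PCDHGC3, and of PCDHGC3 and PCDHAC2 alone, as means (bars, axis from 0) with SD over 3 libraries and single libraries as points. Erlotinib bars are higher for all sums (beta 3.62, alpha 2.50, gamma 1.97 times DMSO) and lower for both single genes.

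Composition changed most in the gamma cluster. PCDHGC3 held 46.7% ± 1.23 of the gamma signal in DMSO and 16.8% ± 0.426 with erlotinib (SD, n = 3), while PCDHGB7 went from 2.66% ± 0.26 to 10.4% ± 0.831 and PCDHGA7 from 5.65% ± 1.87 to 10.2% ± 0.708. The 3 leading gamma genes of each condition (PCDHGC3, PCDHGA8 and PCDHGA11, and then PCDHGC3, PCDHGA10 and PCDHGB7) made up 64.3% of the signal in DMSO and 38.3% with erlotinib, and the number of genes needed for 50% of it went from 2 to 5. In the alpha cluster PCDHAC2 went from 19.4% ± 1.73 to 4.97% ± 0.838, and PCDHA11 from 27.3% ± 2.95 to 35.5% ± 1.27. The 3 leading alpha genes of each condition (PCDHA11, PCDHAC2 and PCDHA12, and then PCDHA11, PCDHA12 and PCDHA4) took 62.7% and 66.5%. In the beta cluster PCDHB2 kept about the same share (33.2% ± 1.80 and 30.2% ± 1.37), PCDHB11 went from 1.56% ± 0.586 to 7.61% ± 0.483 and PCDHB13 from 17.2% ± 3.36 to 10.8% ± 0.143. A share falls when other members of the cluster rise, so it is not a level.

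**Figure D4:**
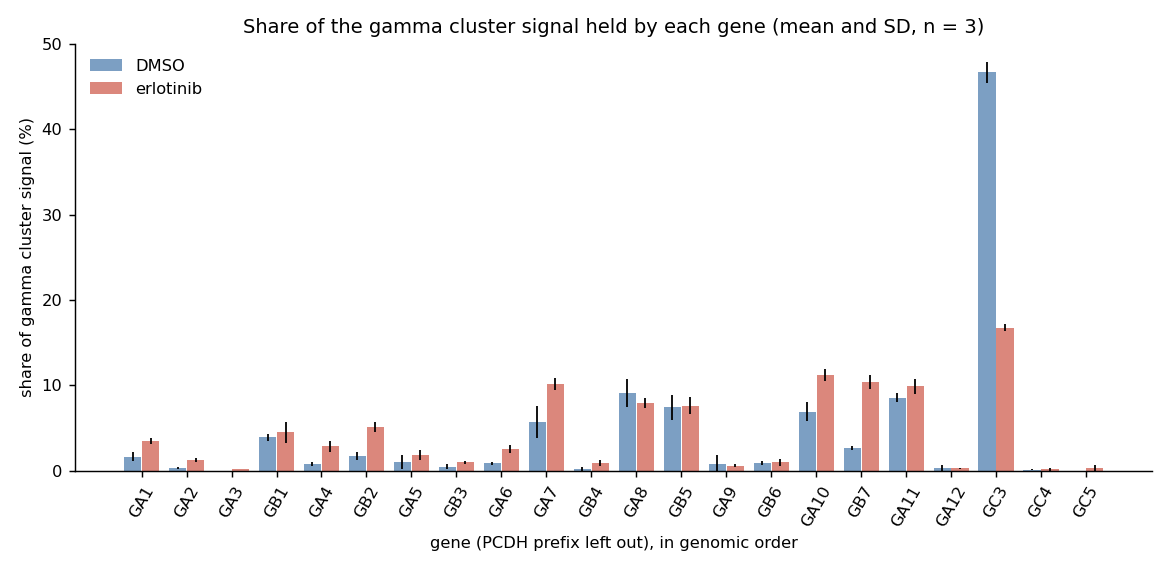
Share of the summed gamma signal (percent, axis from 0) held by each of the 22 gamma genes in DMSO and with erlotinib, as means with SD over 3 libraries. PCDHGC3 drops from 46.7% to 16.8%, and the other shares stay under 12%.

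Levels can be compared between genes only per length, and here signal was divided by the length of the variable or sole exon in kilobases. In DMSO PCDHGC3 led at 232 per kb, ahead of PCDHA11 at 119, PCDHAC2 at 75.7, PCDHB2 at 75.3 and PCDHA12 at 70.9. With erlotinib PCDHA11 led at 389 per kb, ahead of PCDHB2 at 248, PCDHA12 at 175, PCDHA4 at 169 and PCDHGC3 at 164. Reads on other exons of these genes enter the numerator, so the values are approximate. Although most levels rose, the order within a cluster was largely kept, with Spearman's rho between mean DMSO and mean erlotinib signal per kb of 0.92 over 15 alpha genes, 0.97 over 16 beta genes and 0.92 over 22 gamma genes. These are descriptions over genes that share libraries.

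Pseudogenes of the clusters gave few reads. PCDHB19P rose from 2.27, 0 and 8.56 to 21.2, 13.9 and 15 (log2 fold change 2.47, SE 0.81, adjusted p = 0.0101, limma), and PCDHGB8P, at 20.4, 1.86 and 9.63 and then at 18.5, 4.95 and 19.7, did not pass (adjusted p = 0.453, limma). PCDHB19P had a DMSO mean of 3.61 and reached the filter only through its erlotinib libraries. PCDHB17P and PCDHB18P stayed under the filter, with at most 8 reads in a library.

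Genes known to act on these clusters were mostly lower. Of 23 regulators listed (CTCF, cohesin and its loading and release factors, DNA methyltransferases and factors of repressive chromatin), 22 were tested, of which 15 fell, 2 rose and 5 did not pass, with a median log2 fold change of -0.45 against 0.02 over all genes, where 35.4% fell. The share that fell depended on level, being 23.4% within the members' range of mean signal. Regulators reached above that range, up to a mean signal of 13277 for TRIM28, and no share matched to their level was computed. With scaling to the total reads 12 fell and 4 rose, with a median of -0.27. Under that scaling 3951 of all 14248 genes tested fell and 6182 rose, with a median of 0.20. CTCF, the zinc finger protein that binds the conserved promoter element, was at 3116, 3158 and 2823 in DMSO and at 2204, 2318 and 2178 with erlotinib (log2 fold change -0.44, SE 0.07, adjusted p = 1.29e-05, limma). DNMT1, the maintenance DNA methyltransferase, was at 6799.6, 7000.4 and 6971 and then at 2026, 2024 and 2007 (-1.78, SE 0.06, adjusted p = 1.44e-15, limma). SMC1A, a core subunit of cohesin, was at 5444, 6334 and 5482 and then at 1949.9, 2025 and 2116 (-1.50, SE 0.07, adjusted p = 1.75e-13, limma). For all 3 genes each erlotinib library lay below each DMSO library. SMCHD1, a chromatin protein that holds these clusters silent in some tissues, was at 1550.1 ± 90.4 and 663 ± 48.4 (-1.22, SE 0.09). The 2 that rose were DNMT3A, a de novo methyltransferase, from 1069.8 ± 24.6 to 2001 ± 92.5 (0.90, SE 0.08), and SETDB1, a histone H3 lysine methyltransferase, from 749 ± 70.9 to 1318 ± 53.6 (0.82, SE 0.09). EHMT2 is listed at 0 in all libraries. Whether any of these changes bears on the protocadherin genes was not tested.

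Other cadherins were compared as well. Of 31 non-clustered protocadherins and related cadherins, 13 were tested, of which 10 rose and none fell, with a median log2 fold change of 1.04, where 35.3% of all genes rose. CDH1, PCDH12 and FAT1 did not pass. The other 18 were under the filter and were not tested, 7 of them without a read. Among them CDH4 was at 6.81, 4.64 and 16.1 in DMSO and at 1.85, 0 and 3.74 in erlotinib, so that its groups did not overlap and erlotinib was the lower. PCDH9 had a mean of 11.8 in DMSO and 6.71 in erlotinib, with overlapping groups. CDHR2, a protocadherin of the brush border, was at 89.6, 78.0 and 86.7 and then at 500.2, 512 and 478 (log2 fold change 2.54, SE 0.14, adjusted p = 1.97e-12, limma). FAT4, a giant atypical cadherin, was at 206, 243 and 202 and then at 628, 570.2 and 784 (1.59, SE 0.13, adjusted p = 8.65e-10, limma). Both were higher in every erlotinib library. CDH1, the E-cadherin of epithelial junctions, was at 27824 ± 967 and 30609 ± 633 (0.14, SE 0.06, adjusted p = 0.0531, limma), and it passed as higher with edgeR, DESeq2 and both other scalings.

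Of 14 genes on either side of or between the clusters in 5q31, 13 were tested, of which 3 rose, 6 fell and 4 did not pass, where 35.3% of all genes tested rose and 35.4% fell. The median log2 fold change of the neighbours was -0.11. With scaling to the total reads 5 rose, 3 fell and the median was 0.07. Under that scaling 6182 of all 14248 genes tested rose and 3951 fell, with a median of 0.20. PCDH1, a non-clustered protocadherin further along the arm, was at 591.0, 445 and 543 and then at 1424, 1493 and 1451 (1.48, SE 0.10, adjusted p = 3.86e-11, limma). FCHSD1, an adaptor of membrane bending, was at 270.0, 232 and 268 and then at 659.8, 646 and 662 (1.35, SE 0.11, adjusted p = 8.56e-10, limma). TAF7, a subunit of the general transcription factor TFIID that lies between the beta and gamma clusters, was at 6652 ± 138 and 6184 ± 77.9 (-0.11, SE 0.06, adjusted p = 0.129, limma). HARS, a histidyl-tRNA synthetase upstream of the alpha cluster, fell from 1392 ± 110.5 to 760.4 ± 41.5 (-0.87, SE 0.09), and DIAPH1, a formin downstream of the gamma cluster, from 8986 ± 104 to 5906 ± 286 (-0.61, SE 0.06). The difference between the neighbours and the members was not tested.

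**Figure D5:**
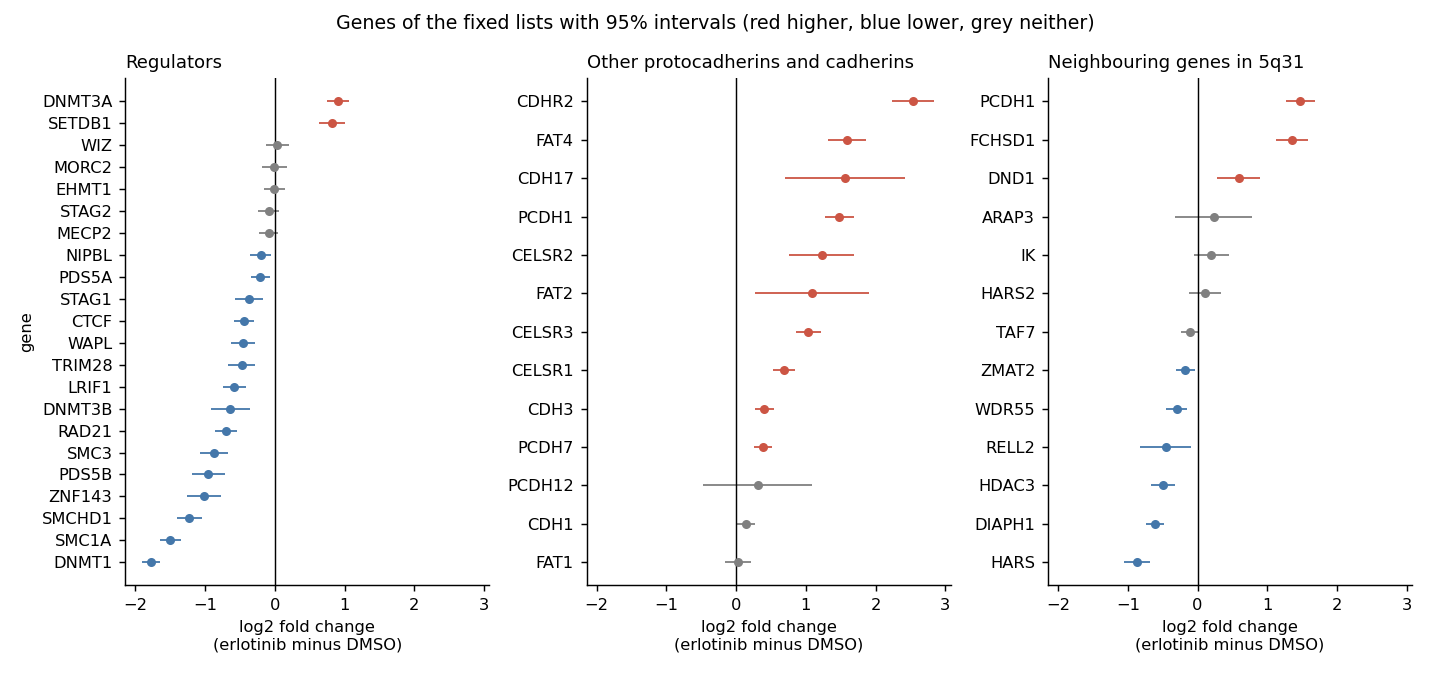
Log2 fold change (erlotinib minus DMSO) with 95% intervals from limma for the tested genes of 3 lists: 22 regulators, 13 other protocadherins and cadherins, and 13 neighbours in 5q31 (PCDH1 is in both of the latter). Red genes rose, blue genes fell and grey genes did not pass; most regulators are blue, no cadherin is blue, and the neighbours are mixed.

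The cells carried the markers of their labelled origin. All 10 markers of lung adenocarcinoma epithelium were tested, of which 4 rose and 4 fell, where 35.3% of all genes tested rose and 35.4% fell. With the other scalings, edgeR and DESeq2 5 rose, CDH1 being the additional one. KRT7 was the most abundant at a mean signal of 101791. MUC1, a membrane mucin, went from 419.7 ± 50.1 to 2961 ± 103 (log2 fold change 2.82, SE 0.09), NAPSA, an aspartic protease of lung epithelium, from 986 ± 74.9 to 3733 ± 156 (1.92, SE 0.08), keratin KRT18 from 18755 ± 1731 to 7876 ± 337 (-1.25, SE 0.07), and keratin KRT8 from 45622 ± 3011 to 25636 ± 338 (-0.83, SE 0.07). Of 11 markers of neurons and neuroendocrine cells, cell types in which clustered protocadherins are abundant, 5 were tested, of which 3 rose, and 4 rose with scaling to the total reads. MAP2, RBFOX3 and SYP had a DMSO mean under 10 and reached the filter only through their erlotinib libraries, so of the 3 that rose SYT1 alone had a DMSO mean of at least 10. MAP2, a microtubule protein of dendrites, was at 4.54, 0 and 5.35 and then at 36.9, 40.6 and 76.8 (log2 fold change 3.92, SE 0.66, adjusted p = 2.19e-05, limma). SYT1, a calcium sensor of vesicle release, was at 318, 327 and 283 and then at 1119, 1111 and 1116 (1.85, SE 0.10, adjusted p = 8.12e-13, limma). RBFOX3, a splicing factor of neurons, was at 7.74 ± 1.89 and 20.4 ± 4.67 (1.29, SE 0.52, adjusted p = 0.0316, limma). SYP, a protein of synaptic vesicles, had 15, 6 and 2 reads in DMSO and 29, 6 and 10 with erlotinib and did not pass (adjusted p = 0.334, limma), and TUBB3 did not pass either. SNAP25, GAP43, ELAVL4 and CHGA had no read in any library, and STMN2 and NEFL were under the filter. The summed neuronal signal, most of it TUBB3, was 6868, 5542 and 6528 and then 7725, 7674 and 7784.

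Of 8 fibroblast markers only COL1A1 was tested, and it rose from 77.7 ± 15.3 to 216 ± 27.9 (log2 fold change 1.47, SE 0.19, adjusted p = 6.78e-07, limma). LUM, a proteoglycan of the matrix, was under the filter with 2, 4 and 6 reads in DMSO and 10, 10 and 20 with erlotinib. COL1A2 had 1, 2 and 0 reads in DMSO and 0 in each erlotinib library, and COL3A1 had 2, 0 and 2 and then 1, 0 and 0. PDGFRA, PDGFRB and DCN were under the filter and THY1 had no read. The list, nearly all of it COL1A1, summed to 73.7, 75.2 and 109 and then to 260.2, 223 and 217. Of 6 glial markers only MBP was tested, and it fell (-0.51, SE 0.07), while GFAP, the filament protein of astrocytes, was under the filter with 5, 2 and 7 reads in DMSO and 11, 14 and 17 with erlotinib. OLIG2, S100B and AQP4 had no read. The glial sum was 5522, 5669 and 5159 and then 3758, 3742 and 3981. The part of other cell types in the protocadherin result was not tested beyond these levels.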

How the data were processed

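Per the study's methods and the submitters' processing notes, read pairs were aligned by the authors to GRCh38 (Bowtie2 2.3.4), uniquely mapped reads were assigned to genes (featureCounts 1.6.3), and DESeq2 1.18.1 was applied. The deposited values, described as raw counts, are a signal: reads divided by 1 size factor per library (0.882 to 1.08). Dividing by each library's smallest step gave whole reads for 100% of values (tolerance 0.01), so reads were recovered. All 6 columns were used. The sample titles number both groups 1 to 3, whereas the table numbers its erlotinib columns 4 to 6, and these are the numbers used here. Libraries of a group differed by more than counting error (chi-square per degree of freedom 4.05 to 22.9).

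Since the table holds signal and not counts, limma 3.58.1 with a variance trend on log2(signal + 1) was the main test, over the 14215 genes whose mean signal reached 10, two-sided, with Benjamini-Hochberg adjustment at 0.05. Adding 1 understates the change of genes near 0, and a difference of mean logs need not equal the log of a ratio of means. Alternatives were edgeR 4.0.16 and DESeq2 1.42.0 on the recovered reads, total-read and TMM scaling, no filter or a filter of 30, pseudocounts of 0.1 and 10, each library left out, and cluster sums without their highest member. A minimum DMSO mean of 10 was added after seeing the data.

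Members, lists and tests were chosen with earlier results of these data known, and the lists were written from general knowledge. Named with values in each library were the 5 members of highest mean signal per cluster and those past the threshold by at least 1 log2 unit. Of each list, the 2 largest rises and the 2 largest falls past the threshold, and CTCF, were named, with library values or means. SMCHD1, TAF7, CDH1, CDH4, PCDH9, RBFOX3, other markers and the pseudogenes, and the other members, were named outside this rule after their values were seen. HARS1 is listed as HARS. Exons came from GENCODE release 44, promoter windows from RefSeq. The software was R 4.3.3, Python 3.11.15 and matplotlib 3.10.9.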

Additional observations from a re-analysis of the deposited data

How the results depend on the processing

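No paired analysis was possible because the table numbers its erlotinib columns 4 to 6, while the sample titles number both groups 1 to 3, so that the columns could not be matched to the titles' numbers, and the labels do not say that a shared number marks a shared culture or day. Under every alternative run, edgeR and DESeq2 included, 2 members fell, and the number that rose was 28 to 46, being 46 with no filter (all 53 tested), 29 with a filter of 30 and 28 with a DMSO mean of at least 10 (31 tested each). Leaving out each library gave 37 to 41. Scaling to the total reads shifted the median of all genes tested to 0.20 (0.02 with the deposited scaling) and their calls to 6182 higher and 3951 lower (5012 and 5031), and no filter shifted the median to 0.13. With total-read scaling the log2 ratio of summed signal was 1.51 for alpha, 2.04 for beta and 1.16 for gamma, against 1.32, 1.85 and 0.98. Without its highest member it was 1.15 for alpha (PCDHA11) and 1.62 for gamma (PCDHGC3). Leaving out each library gave 1.27 to 1.41 for alpha, 1.80 to 1.92 for beta and 0.95 to 1.01 for gamma. Of 641 alternative values of single members, 635 kept direction and side of the threshold, 5 lost the call (4 of PCDHA7, 1 of PCDHA8), 1 gained it (PCDHGB6) and 0 reversed. This tally covers only fits in which the member was tested. Against 45 in the main fit, 44 members were tested without DMSO 2 or without erlotinib 4, and 43 without erlotinib 5 or 6. Members that dropped below the filter there, such as PCDHA6, also lowered the number that rose. Depth limits the 8 members under the filter, which hold few reads per library, and signal cannot show whether a member without reads in DMSO is silent there.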

Other observations

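Of 19 genes listed as binding partners or processing enzymes of the protocadherin proteins, 18 were tested, of which 6 rose, 5 fell and 7 did not pass, close to the 35.3% that rose and 35.4% that fell over all genes tested. The median log2 fold change was 0.11. With scaling to the total reads 10 rose and 1 fell, and the median was 0.29. Under that scaling 6182 of all 14248 genes tested rose and 3951 fell, with a median of 0.20. That scaling shifts all genes alike, so the change in balance is not particular to this list. CYFIP2, a subunit of the WAVE complex that binds some protocadherin tails, was at 29.5, 9.29 and 5.35 in DMSO and at 48.0, 62.4 and 56.2 with erlotinib (log2 fold change 2.16, SE 0.47, adjusted p = 0.00036, limma). NCSTN, a subunit of the gamma-secretase that cleaves these proteins within the membrane, was at 969, 1308 and 1091 and then at 1925, 1963 and 2255 (0.87, SE 0.10, adjusted p = 8.41e-08, limma). In both, each erlotinib library lay above each DMSO library. PDCD10, an adaptor that binds gamma tails, went from 707 ± 51.0 to 519 ± 12.9 (-0.44, SE 0.10), and NCKAP1, another WAVE subunit, from 3612 ± 352 to 2901 ± 25.1 (-0.31, SE 0.07), which was no longer called with scaling to the total reads. RET, a receptor kinase that pairs with these proteins, had 1 read in DMSO 1 and 0 in the other libraries.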
